A study of Mus musculus with 9 samples.

Results

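Osteoclasts resorb bone and also send signals to bone-forming cells, so that resorption at a site is followed by formation. Such signals, called coupling factors, include growth factors, cytokines of the gp130 family and the lipid sphingosine 1-phosphate (S1P). The expression of 10 of these genes was followed here in cultured mouse macrophages grown from bone marrow (BMDMs), which become osteoclasts under the cytokine RANKL. The 10 genes were chosen by name (Sphk1, S1pr1, S1pr2, Tgfb1, Pdgfb, Igf1, Osm, Lif, Bmp2 and Hbegf) among 28379 genes in the deposited table, and all 10 were among the 17002 genes tested. S1pr1 and S1pr2 are receptors, not secreted signals, and Sphk1 makes a lipid signal rather than being one. For the others the mRNA encodes the signal itself.

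RNA from 3 groups of 3 libraries was compared, 9 in all. Every group consisted of BMDMs of 10-week-old C57BL/6J mice kept with M-CSF (20 ng/ml) for 48 h. RANKL and vitamins were left out of the PBS group. The RANKL group had RANKL at 100 ng/ml. To the same RANKL dose the third, RANKL + Vit D + K, added calcitriol, the active form of vitamin D (1000 nM), and menaquinone-4, a form of vitamin K (20 μM in the labels, while the study's methods give a higher dose). Neither vitamin was given alone in these libraries, so their separate effects cannot be told apart. The methods speak of pooled RNA, and how many mice or cultures stand behind a library is not given, so p-values measure only the spread between these libraries, which may be technical.

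Total counts per library lay between 65915112 and 68229647. Osteoclast markers differed between the groups. Of these, 9 of 9 (Acp5, Ctsk and Calcr among them) rose with RANKL (2.35% of all genes tested did) and 8 of 9 fell with the vitamins against RANKL (17.2% of all genes), and their summed FPKM was 22.9 to 30.4 in the PBS libraries, 487 to 1018 with RANKL and 58.2 to 93.1 with the vitamins. Of 6 macrophage markers, 4 fell and 1 rose with the vitamins against RANKL (16.4% of all genes rose). Their summed FPKM went from 16595 to 24172 with RANKL to 4484 to 11506, but most of it was Lyz2. Lyz2 alone went from 15002 to 22219 with RANKL to 3189 to 10168. With RANKL and then with the vitamins, Adgre1 had 370 to 502 and 219 to 251, and Itgam 216 to 245 and 145 to 183. Csf1r had 412 to 627 and 136 to 221, and Mertk 20.3 to 30.5 and 4.74 to 7.49. Cd68 had 534 to 575 and 681 to 789. With the vitamins Adgre1, Itgam and Cd68 were highest in replicates 1 or 3. Lyz2, Csf1r, Mertk and the sum were highest in replicate 2. That library of the RANKL + Vit D + K group stood apart, with a mean correlation of 0.956 to the others of its group, the lowest of the 9, and values without it are given beside the named results whose call it changes or whose fold it moves by over 1.5 times. Neutrophil markers (7 genes, summed FPKM) ranged from 10.7 to 141 in the PBS and RANKL libraries and from 0.551 to 1.72 with the vitamins. Osteoblast and stromal markers (9 genes) summed to between 1.12 and 1.78 in all libraries, but their members moved apart. With the vitamins against RANKL 1 rose and 2 fell of 4 tested (75%, beside 33.7% of all genes). Runx2 went from at most 0.766 FPKM to at least 1.21, while Col1a1 counts went from 38, 24 and 25 to 0, 3 and 0. Endothelial markers (5 genes) summed to between 0.438 and 1.02 in the PBS and RANKL libraries and between 1.41 and 3.18 with the vitamins. Erythroid and megakaryocyte markers (4 genes in the table) summed to between 3.49 and 30.2, and lymphoid markers (2 genes in the table) to at most 0.134. The part of these cells in the results below was not tested, and in bulk RNA fewer cells of a type and less RNA per cell cannot be told apart.

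The 10 genes lie at separate places in the genome except for Osm and Lif, which are neighbours on chromosome 11 (GRCm38, plus strand), at 4236420 to 4241026 (ENSMUSG00000058755) and 4257557 to 4272514 (ENSMUSG00000034394). They are 16530 bases apart with 0 other genes of the table between them, so the pair allows a comparison of neighbouring genes of related cytokines. RefSeq promoter windows (GRCm38.p6) were used for 5 of the 10 genes, in 9 windows of 250 bases before to 50 bases after a transcription start. The AP-1 motif TGANTCA, searched on both strands, was in 4 of the 9 windows, of 3 genes (Lif, Sphk1 and Igf1), and in 7.81% of all 32851 promoters. That share is per window, and a gene with several windows has more chances of a match. The Sphk1 windows with a match overlap and hold the same TGAGTCA, which lies inside the listed Sphk1 gene. The Igf1 match lies in an annotated 5′ UTR of longer Igf1 transcripts. The cAMP response element TGACGTCA was in 1 of the 9 windows, that of S1pr2, and in 1.79% of all promoters. The ATF4-CHOP motif TGATGNAA (3.97% of promoters) was in 0 of the 9 windows, as was the vitamin D response element of 2 half-sites spaced by 3 bases (0.0396%). The NF-kB motif was in 7 of the 9 windows, of 4 of the 5 genes, and in 50.8% of promoters. No 2 motifs matched the same bases of Lif or S1pr2. A match is a description of letters and not a site of binding. The 250 bases before the start are shown for Lif, the cytokine with 0 counts in the PBS libraries, and S1pr2, the receptor that was lower in both RANKL groups, with the AP-1 match of Lif and the cAMP response element of S1pr2 in capitals. The Lif window is chr11:4257318-4257567 on the plus strand, with the motif 228 bases before the start. The S1pr2 window is chr9:20976794-20977043 on the minus strand, with the motif 181 bases before the start.
Lif: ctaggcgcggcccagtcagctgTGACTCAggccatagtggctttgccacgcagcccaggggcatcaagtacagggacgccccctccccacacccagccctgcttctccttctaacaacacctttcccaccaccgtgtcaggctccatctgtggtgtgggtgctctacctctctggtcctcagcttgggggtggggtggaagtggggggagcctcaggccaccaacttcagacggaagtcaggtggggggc
S1pr2: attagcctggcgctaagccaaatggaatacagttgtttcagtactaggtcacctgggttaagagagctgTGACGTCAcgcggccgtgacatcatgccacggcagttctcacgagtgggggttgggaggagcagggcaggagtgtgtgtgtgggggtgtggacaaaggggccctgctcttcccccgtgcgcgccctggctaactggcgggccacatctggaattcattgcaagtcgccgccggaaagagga

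Levels differed widely between the genes. On the FPKM scale (read fragments per length of transcript and per sequencing depth), which allows genes of different length to be compared, Igf1 led in the PBS group at 68.3 ± 10.3 (mean ± SD, n = 3), followed by Tgfb1 at 37.4 ± 3.64. S1pr1 (15.6 ± 2.95) and S1pr2 (13.6 ± 0.662) came next with overlapping ranges, then Pdgfb (3.12 ± 0.235) and Osm (2.02 ± 0.269). With RANKL the order became Tgfb1 (41.5 ± 2.80), Igf1 (32.5 ± 7.37), Pdgfb (11.8 ± 2.06), S1pr1 and S1pr2 (9.11 ± 1.02 and 8.98 ± 0.642, overlapping) and Osm (1.35 ± 0.0714). With the vitamins Tgfb1 led at 31.9 ± 5.16, and the ranges of S1pr1 (11.4 ± 4.59), Osm (11.2 ± 6.40), Igf1 (10.6 ± 3.14) and S1pr2 (8.43 ± 0.146) overlapped from each to the next in that order, ahead of Pdgfb (4.53 ± 2.49). The remaining 4 genes, Sphk1, Lif, Bmp2 and Hbegf, had a mean FPKM under 1 in every group, so their values rest on few reads. They passed the filter on low counts through the RANKL and vitamin groups: Lif and Hbegf had 0 of 3 PBS libraries with at least 10 counts, and Sphk1 and Bmp2 had 1 of 3. A gene that passes in this way had to differ, so the numbers of genes past the threshold and the medians below are not support for a pattern. The same limit holds for the p-values of these 4 genes against PBS.

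**Figure D1:**
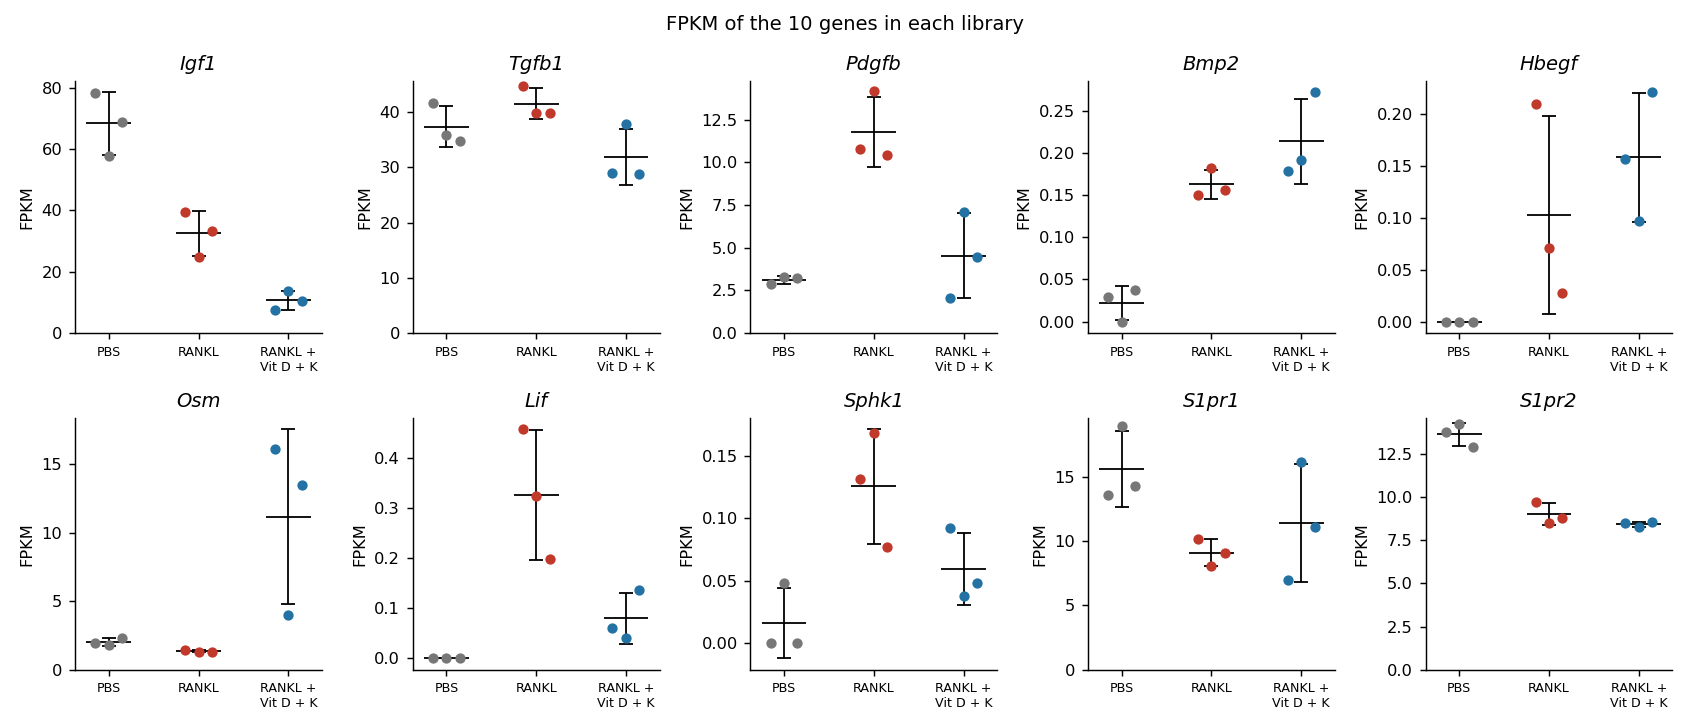
FPKM (vertical axis, linear, a separate scale for each gene) of the 10 genes in each of the 9 libraries, with the mean (line) and SD (bars) of each group of 3. Igf1 falls from group to group from a mean of 68.3 to 32.5 to 10.6, Pdgfb is highest with RANKL at 11.8, Osm is highest with the vitamins at 11.2, and Lif and Hbegf are listed at 0 in the PBS libraries.

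The first comparison, RANKL against PBS, asked what the start of osteoclast differentiation does to these signals. Pdgfb, Lif and Hbegf rose, Igf1 and S1pr2 fell, and the other 5 did not pass the test (edgeR's quasi-likelihood test, Benjamini-Hochberg adjusted p under 0.05 over all genes tested). Thus 5 of 10 genes passed, 3 of them higher, against 3.61% of all genes tested (2.35% higher and 1.26% lower). The median log2 fold change of the 10 genes was 0.91, -0.71 without the 4 low-count genes and -0.04 for all genes. The comparison of RANKL + Vit D + K with RANKL asked what the vitamins do on top of RANKL, and it shares the RANKL libraries with the first. Osm rose and Pdgfb and Igf1 fell, 3 of 10 genes against 33.7% of all genes (16.4% higher and 17.2% lower), a share near the background, with a median of -0.09 for the 10 genes and -0.04 for all. Against PBS, the RANKL + Vit D + K group had 6 of 10 genes past the threshold (Osm, Lif, Bmp2 and Hbegf higher, Igf1 and S1pr2 lower), against 40.8% of all genes (19.8% higher and 21.0% lower). The median there was 1.16 for the 10 genes, -0.33 without the 4 low-count genes and -0.04 for all. Leaving out each library in turn gave between 1 and 7 genes in the first comparison, 3 to 4 in the second and 5 to 7 in the third. Of all genes tested in the same fits, 0.709% to 10.7%, 18.1% to 46.4% and 26.8% to 49.8% passed. Osm and Igf1 passed every time in the second comparison. Lif did so in the first, though it entered the test only through the 2 groups with RANKL. Without the second replicate of RANKL + Vit D + K, 7, 3 and 7 genes passed, against 10.7%, 46.4% and 49.8% of all genes tested in the same fit.

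**Figure D2:**
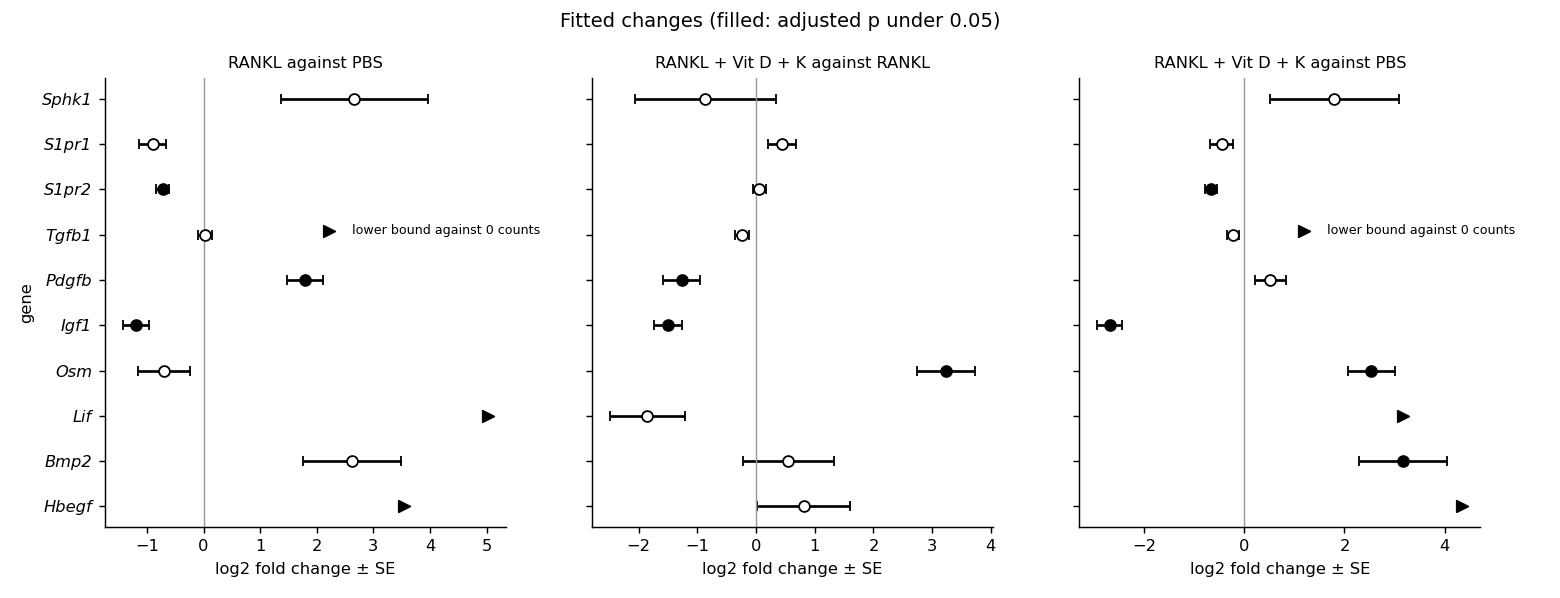
Fitted log2 fold change (horizontal axis) with its SE for the 10 genes in the 3 comparisons; filled points have an adjusted p under 0.05 and triangles are lower bounds for genes whose PBS libraries were all at 0 counts. Pdgfb lies at 1.79 with RANKL and at -1.26 when the vitamins are added, Osm at 3.24 with the vitamins, and Igf1 on the lower side in all 3 panels.

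Among the growth factors, Igf1, insulin-like growth factor 1, which promotes osteoblast growth and is also made by macrophages, was lower in each group than in the one before. Its FPKM was 78.3, 57.8 and 68.9 in the PBS libraries (replicates 1 to 3), 39.4, 24.7 and 33.4 with RANKL, and 7.57, 13.8 and 10.4 with the vitamins. No library of one group overlapped with another group. Igf1 fell by 1.19 on the log2 scale with RANKL (SE 0.231, edgeR adjusted p = 0.0268), by 1.50 when the vitamins were added (SE 0.233, adjusted p = 0.00239), and by 2.69 from PBS to RANKL + Vit D + K (SE 0.243, adjusted p = 0.000222), a 6.44-fold lower value. The fall with RANKL alone lost the threshold without any 1 of PBS replicates 1 (adjusted p = 0.124), 2 (0.0503) and 3 (0.114), RANKL replicates 1 (0.0550), 2 (0.0759) and 3 (0.0764) or RANKL + Vit D + K replicate 3 (0.0554), with log2 fold changes between -1.36 and -0.998. The fall with the vitamins kept an adjusted p of at most 0.0126 in these fits and was -1.65 without RANKL + Vit D + K replicate 2. The gene whose log2 CPM (counts scaled to library size) were most like those of Igf1 over the 9 libraries was Csf1r, the M-CSF receptor and a macrophage marker (Pearson r = 0.997 among 17001 other genes), then Trf (transferrin) and Pde1b (r = 0.996 and 0.995). Csf1r FPKM ranged from 832 to 1056 in PBS, 412 to 627 with RANKL and 136 to 221 with the vitamins, so it moved with Igf1, and its part in the Igf1 result was not tested. Igf1 (ENSMUSG00000020053) lies on the plus strand of chromosome 10, from 87858265 to 87937042, and overlaps Igf1os on the other strand, and reads of the pair cannot be told apart if counting ignored strand, which is not stated.

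Of the other IGF genes (16 listed, 8 tested), 1 rose and 0 fell with RANKL, and 1 rose and 2 fell with the vitamins, with medians of -0.51 and 0.21. The 1 of 8 with RANKL (12.5%) stands beside 3.61% of all genes, and the 3 of 8 with the vitamins (37.5%) beside 33.7%. Igf2r, which takes IGF-II into the cell for degradation, rose with RANKL by 0.83 (SE 0.163, adjusted p = 0.0284), a call lost in 6 of 9 fits without a library (adjusted p up to 0.123). With the vitamins, Irs2, a docking protein of the insulin and IGF receptors, rose by 1.61 (SE 0.286, edgeR adjusted p = 0.00399). Igf1r, the receptor of Igf1, fell by 1.08 (SE 0.173, adjusted p = 0.00267). Igfbp4, a binding protein that holds IGFs away from the receptor, fell by 2.01 (SE 0.371, adjusted p = 0.00465), from 45.6 ± 6.54 to 10.6 ± 7.40 FPKM, and without RANKL + Vit D + K replicate 2 the log2 fold change was -2.61.

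Pdgfb, the platelet-derived growth factor subunit B, which osteoclast precursors secrete and which acts on vessel-forming and skeletal progenitor cells, was high with RANKL alone. Its FPKM was 2.85, 3.28 and 3.23 in PBS, 10.8, 14.2 and 10.4 with RANKL, and 2.08, 7.07 and 4.46 with the vitamins. All RANKL libraries lay above all others, while the PBS and RANKL + Vit D + K libraries overlapped. Pdgfb rose with RANKL by 1.79 on the log2 scale (SE 0.319, edgeR adjusted p = 0.0199), 3.45-fold, and fell with the vitamins by 1.26 (SE 0.314, adjusted p = 0.0149), 2.40-fold. From PBS to RANKL + Vit D + K the value was 0.52 (SE 0.311, adjusted p = 0.207), and 0.90 with an adjusted p of 0.00903 without RANKL + Vit D + K replicate 1, the lowest of that group. Without replicate 2, the highest, it was 0.15 (SE 0.260, adjusted p = 0.657). The rise with RANKL lost the threshold without PBS replicates 1 (0.0967), 2 (0.0627) or 3 (0.0903) or RANKL replicates 1 (0.0607) or 2 (0.0742). The fall with the vitamins lost it without RANKL + Vit D + K replicate 3 (-1.29, adjusted p = 0.0543), and was -1.64 (adjusted p = 0.00135) without replicate 2. Pdgfb (ENSMUSG00000000489) lies on the minus strand of chromosome 15, from 79995874 to 80014977, and overlaps Gm41361 on the plus strand and Mir7213 on its own.

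Of the other PDGF genes (7 listed, 3 tested), 0 passed the test with RANKL, beside 3.61% of all genes. At an unadjusted p under 0.05 there was 1, beside 3163 of all 17002 genes, and with DESeq2 1, beside 9.99% of all genes. With the vitamins 1 rose and 2 fell (medians 0.40 with RANKL and -4.22 with the vitamins), 3 of 3 beside 33.7% of all genes. Pdgfa, a ligand related to Pdgfb, rose by 1.25 with the vitamins (SE 0.202, edgeR adjusted p = 0.00279), from 5.31 to 11.5 FPKM, opposite to Pdgfb. Pdgfc, another ligand, fell by 4.22 (SE 0.432, adjusted p = 0.00049), from 0.655 to 0.0304 FPKM. Pdgfrb, the receptor that Pdgf-BB binds, had 96, 125 and 152 counts with RANKL and 8, 0 and 0 with the vitamins (-5.28, SE 1.04, adjusted p = 0.0060). This was -4.67 without replicate 2 of the vitamins, and without replicate 1 the remaining vitamin libraries were at 0. Pdgfrb is also among the stromal markers above, of which Col1a1 had 38, 24 and 25 counts with RANKL and 0, 3 and 0 with the vitamins, while Runx2 rose. The part of stromal cells in the Pdgfrb result was not tested. The genes most like Pdgfb over the 9 libraries were Hadhb-ps (r = 0.986), a pseudogene, and Spns2 (0.986), the exporter of S1P described below.

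Tgfb1, transforming growth factor beta 1, which is stored in bone matrix and recruits osteoblast precursors once resorption frees it, was among the 2 most abundant of the 10 genes in the PBS and RANKL groups and led with the vitamins. Its FPKM was 41.5, 35.8 and 34.8 in PBS, 44.7, 39.8 and 39.8 with RANKL, and 28.9, 37.8 and 28.8 with the vitamins. In FPKM the PBS libraries overlapped both other groups and each vitamin library lay below each RANKL library. In normalised CPM, the scale tested, each vitamin library lay below each PBS library and the vitamin and RANKL libraries overlapped. No comparison passed the test: 0.03 with RANKL (SE 0.119, edgeR adjusted p = 0.94, 95% interval -0.24 to 0.30), -0.24 with the vitamins (SE 0.120, adjusted p = 0.146) and -0.22 against PBS (SE 0.120, adjusted p = 0.175). The interval leaves out a change of 1.5-fold with RANKL in either direction. With limma on log2(FPKM + 1) or with sample quality weights the value with the vitamins passed (-0.38 with an adjusted p of 0.0427, and -0.38 with 0.00272), and with the weights so did the value against PBS (-0.32 with 0.00645). Tgfb1 (ENSMUSG00000002603) lies on chromosome 7, 25687002 to 25705077, plus strand.

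The genes around TGF-beta (25 listed, 23 tested) showed 1 higher and 1 lower with RANKL (median -0.27), 2 of 23 (8.7%) beside 3.61% of all genes, and 2 higher and 6 lower with the vitamins (median -0.15), 8 of 23 (34.8%) beside 33.7% of all genes. Ltbp2, a protein of the latent TGF-beta binding family found on elastic fibres, rose with RANKL by 2.41 (SE 0.373, edgeR adjusted p = 0.0121) and fell with the vitamins by 1.22 (SE 0.358, adjusted p = 0.0286), as Pdgfb did. The first call was lost without PBS replicate 3 (adjusted p = 0.0529) and the second in 4 of 9 fits without a library (up to 0.0967). Tgfbr2, the type II receptor, fell with RANKL by 0.60 (SE 0.136, adjusted p = 0.0484), lost in 8 of 9 such fits. Thbs1, thrombospondin 1, which can activate the latent form, fell by 4.55 with the vitamins (SE 0.961, adjusted p = 0.00778), from counts of 24538, 3073 and 55637 with RANKL to 1218, 957 and 1026, and the value was -3.56 without RANKL replicate 3. Itgb8, a chain of an activating integrin, had 48, 10 and 75 counts with RANKL and 0, 0 and 0 with the vitamins, at least 13.4-fold lower against a floor of 3 counts per library (adjusted p = 0.00463), or at least 8.84-fold without RANKL replicate 3. Nrros, which holds latent TGF-beta on macrophages, fell by 0.99 (SE 0.256, adjusted p = 0.0175), lost without RANKL replicate 1 (0.0684) or RANKL + Vit D + K replicate 3 (0.0761).

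Bmp2, bone morphogenetic protein 2, an inducer of osteoblasts, was detected at few counts, 8, 0 and 11 in PBS, 40, 49 and 44 with RANKL, and 48, 53 and 73 with the vitamins. The PBS libraries lay below all others, and the RANKL and vitamin libraries overlapped in counts and FPKM, while in normalised CPM, the scale tested, each vitamin library lay above each RANKL library. Against PBS the RANKL value was 2.62 (SE 0.864, edgeR adjusted p = 0.141), which did not pass (3.33 with 0.227 without PBS replicate 3). The rise in RANKL + Vit D + K passed at 3.17 (SE 0.876, adjusted p = 0.0187), 8.98-fold, and was 3.87 (adjusted p = 0.0300) without PBS replicate 3. That call was lost without PBS replicate 1 (adjusted p = 0.0512) or RANKL + Vit D + K replicate 3 (0.0533), or with only the 2 groups fitted (0.0501). With DESeq2 the RANKL value passed as well (2.66, adjusted p = 0.00751), and with limma on FPKM or with quality weights (adjusted p of 0.0227 to 0.0435). The vitamins against RANKL gave 0.55 (SE 0.780, adjusted p = 0.623), which did not pass. Bmp2 (ENSMUSG00000027358) lies on chromosome 2, 133552159 to 133562885, plus strand.

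Of the other BMP genes (25 listed, 16 tested), 0 rose and 1 fell with RANKL, and 2 rose and 2 fell with the vitamins (medians 0.12 and -0.07). The 1 of 16 with RANKL (6.25%) stands beside 3.61% of all genes, and the 4 of 16 with the vitamins (25%) beside 33.7%. Bambi, a decoy receptor that dampens TGF-beta and BMP signals, fell with RANKL by 1.10 (SE 0.233, edgeR adjusted p = 0.0382), lost in 8 of 9 fits without a library (up to 0.144). With the vitamins Id2, a target of BMP signals in many cells, rose by 2.12 (SE 0.412, adjusted p = 0.00561), and Smad1, which carries the signal to the nucleus, by 0.61 (SE 0.189, adjusted p = 0.0343, lost in 8 of 9 fits). Other target genes of the list, named after their values were seen, did not pass with the vitamins. Id3 had 4586, 7489 and 4131 counts with RANKL and 391, 3264 and 505 with the vitamins (-1.91, adjusted p = 0.125, and -3.35 with 0.0101 without RANKL + Vit D + K replicate 2). Id1 gave 0.27 (adjusted p = 0.872), and -0.84 (0.600) without that replicate. Id3 also passed, as lower, with the replicate number as a block, with values given in the last paragraph. Acvrl1, a type I receptor, fell by 1.43 (SE 0.199, adjusted p = 0.00151), and Acvr2a, a type II receptor, by 0.63 (SE 0.146, adjusted p = 0.0111).

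Hbegf, heparin-binding EGF-like growth factor, a membrane-tethered ligand of the EGF receptor, had 0, 0 and 0 counts in PBS, 77, 26 and 11 with RANKL, and 59, 38 and 82 with the vitamins. It was at least 11.6-fold higher with RANKL than in PBS (3 counts per library as floor, edgeR adjusted p = 0.0288), or at least 5.42-fold without RANKL replicate 1, and at least 20.4-fold higher with RANKL + Vit D + K (adjusted p = 0.00291). The RANKL call was lost without PBS replicates 1 (0.0916), 2 (0.0642) or 3 (0.0921), RANKL replicates 1 (0.0607) or 2 (0.0723) or RANKL + Vit D + K replicate 3 (0.0519). It was also lost with limma on log2(FPKM + 1) (0.268) or log2(FPKM + 0.1) (0.158). The vitamins against RANKL gave 0.81 (SE 0.795, adjusted p = 0.469), with overlapping groups, 1.9 (adjusted p = 0.145) without RANKL replicate 1, and a value past the threshold with sample quality weights (1.45, adjusted p = 0.0485). Hbegf lies on chromosome 18 (ENSMUSG00000024486).

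The EGF family (21 listed, 13 tested) showed 1 higher and 1 lower with RANKL (median -0.14), 2 of 13 (15.4%) beside 3.61% of all genes, and 4 higher and 4 lower with the vitamins (median -0.35), 8 of 13 (61.5%) beside 33.7% of all genes. Egfr, the receptor of Hbegf, rose with RANKL by 1.87 (SE 0.412, edgeR adjusted p = 0.0440) and fell with the vitamins by 1.26 (SE 0.404, adjusted p = 0.0396), and each call was lost in 7 of 9 fits without a library (up to 0.146 and 0.115). Rhbdf2, which carries the sheddase of these ligands to the cell surface, fell with RANKL by 0.59 (SE 0.113, adjusted p = 0.0254, lost in 7 of 9), and rose with the vitamins by 0.82 (SE 0.113, adjusted p = 0.00143). The relative Rhbdf1 fell with the vitamins by 2.68 (SE 0.472, adjusted p = 0.00384; -3.30 without RANKL + Vit D + K replicate 2) and Nrg1, a neuregulin ligand, by 3.55 (SE 1.13, adjusted p = 0.0381, lost in 6 of 9, with -2.95 without RANKL + Vit D + K replicate 2 and -4.21 without replicate 3). Errfi1, a feedback inhibitor of the receptor, rose with the vitamins by 1.49 (SE 0.346, adjusted p = 0.0112, and 0.05003 without RANKL replicate 1).

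Of the gp130 cytokines, which signal through a shared receptor chain and act on osteoblasts, Osm and Lif are neighbours in the genome, and a difference between their responses was not tested. Osm, oncostatin M, had 1.95, 1.79 and 2.31 FPKM in PBS, 1.43, 1.33 and 1.29 with RANKL, and 16.1, 3.97 and 13.5 with the vitamins. The 3 groups did not overlap, and replicate 2 of the vitamins was the lowest of its group. Osm rose with the vitamins by 3.24 on the log2 scale (SE 0.490, edgeR adjusted p = 0.00207), 9.45-fold, and by 2.54 against PBS (SE 0.475, adjusted p = 0.00335), 5.81-fold. Without RANKL + Vit D + K replicate 2 the rise over RANKL was 3.67 (adjusted p = 4.54e-06), and over all fits without a library it lay between 2.83 and 3.67 with an adjusted p of at most 0.0133. With RANKL alone Osm gave -0.70 (SE 0.457, adjusted p = 0.469), and passed without RANKL + Vit D + K replicate 2 (-0.70, adjusted p = 0.0297). The 3 genes most like Osm over the 9 libraries were Bcas2, a splicing factor, Eif1, a translation initiation factor, and F5, coagulation factor V (r = 0.996, 0.995 and 0.995).

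Lif, leukaemia inhibitory factor, had 0, 0 and 0 counts in PBS, 150, 106 and 67 with RANKL, and 20, 14 and 45 with the vitamins. It was listed at 0.458, 0.325 and 0.198 FPKM with RANKL, so it stayed a low transcript. It was at least 32.5-fold higher with RANKL than in PBS (floor of 3 counts per library, edgeR adjusted p = 0.00853) and at least 9.01-fold higher with RANKL + Vit D + K (adjusted p = 0.0022), or at least 5.70-fold without replicate 3 of that group. The latter call was lost with limma on log2(FPKM + 1) (adjusted p = 0.239). Lif, like Hbegf, passed the filter only through the groups with RANKL, so its p-values against PBS are not support for a pattern. The RANKL libraries all lay above those with the vitamins, but the difference of -1.85 (SE 0.634) had an adjusted p of 0.0603. It passed with DESeq2 (-1.87, adjusted p = 0.0237), with limma on FPKM or with quality weights (adjusted p of 0.0107 to 0.0264) and without RANKL + Vit D + K replicate 3 (-2.51, adjusted p = 0.0451), and was -1.50 (adjusted p = 0.0889) without replicate 2. Against RANKL, the vitamins thus went with more Osm in 3 of 3 libraries and with fewer Lif counts in 3 of 3.

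The other genes of the gp130 family (16 listed, 10 tested) showed 0 changes with RANKL by edgeR, beside 3.61% of all genes. At an unadjusted p under 0.05 there was 1, beside 3163 of all 17002 genes, and with DESeq2 0, beside 9.99% of all genes. With the vitamins 1 was higher and 2 were lower (medians -0.46 with RANKL and 0.20 with the vitamins), where 3 of 10 (30%) stand beside 33.7% of all genes. Il6st, which encodes gp130 itself, rose with the vitamins by 1.06 (SE 0.278, edgeR adjusted p = 0.0181), from 12.7 to 23.5 FPKM, a call lost in 5 of 9 fits without a library (up to 0.0653). Lifr, the partner chain that binds Lif, had 868, 417 and 755 counts with RANKL and 7, 138 and 27 with the vitamins, a fall of 3.52 (SE 0.792, adjusted p = 0.00998), and -5.09 without replicate 2 of the vitamins. Il6ra, the receptor of interleukin 6, fell by 2.37 (SE 0.373, adjusted p = 0.0025), and gave -2.90 without that replicate.

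**Figure D3:**
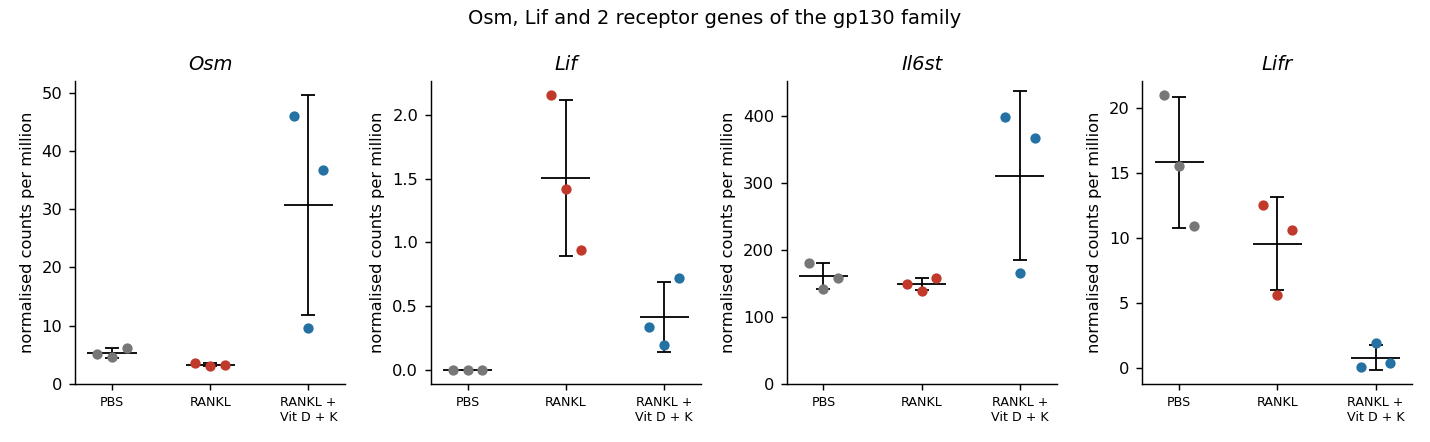
Normalised CPM (vertical axis, linear) of Osm, Lif and the receptor genes Il6st and Lifr in each of the 9 libraries, with the mean (line) and SD (bars) of each group of 3. Osm is highest in the 3 RANKL + Vit D + K libraries and Il6st in 2 of them, with replicate 2 lowest of that group for both genes. Lif is highest with RANKL and at 0 in PBS, and Lifr is lowest with the vitamins.

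The S1P genes were described by role, a kinase that makes the lipid and then its receptors. Sphk1, sphingosine kinase 1, had 0, 20 and 0 counts in PBS, 50, 61 and 29 with RANKL, and 34, 15 and 18 with the vitamins. No comparison passed the test: 2.67 with RANKL (SE 1.3, edgeR adjusted p = 0.319), -0.87 with the vitamins (SE 1.20, adjusted p = 0.615) and 1.80 against PBS (SE 1.28, adjusted p = 0.290). Without PBS replicate 2 the remaining PBS libraries were at 0 counts, and the adjusted p-values against PBS were then 0.0318 for RANKL and 0.00655 for RANKL + Vit D + K. With sample quality weights both values against PBS passed (adjusted p = 0.0130 and 0.00862, limma). The other kinase, Sphk2, named after its values were seen, was abundant, at 20.01 to 24.97 FPKM over the 9 libraries, and gave -0.19 with RANKL (adjusted p = 0.498) and 0.29 with the vitamins (adjusted p = 0.124, and 0.41 with 0.00868 without RANKL + Vit D + K replicate 2). Sphk1 (ENSMUSG00000061878) lies on chromosome 11, 116530925 to 116536674, and overlaps Gm29292 on the other strand.

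S1pr1, a receptor that draws osteoclast precursors towards S1P in blood, had 13.6, 19.0 and 14.3 FPKM in PBS, 10.1, 8.09 and 9.11 with RANKL, and 7.01, 16.2 and 11.1 with the vitamins. All RANKL libraries lay below PBS, but the value of -0.89 (SE 0.239) had an edgeR adjusted p of 0.078. It passed without RANKL + Vit D + K replicate 1 (0.0362) or 2 (0.0231) and with DESeq2 (0.0142), only the 2 groups fitted (0.0171) or sample quality weights (0.00820). The vitamin libraries overlapped both other groups, at 0.44 against RANKL (SE 0.238, adjusted p = 0.183, and 0.67 with 0.0398 without RANKL + Vit D + K replicate 1). Against PBS the value was -0.45 (SE 0.238, adjusted p = 0.157), and it passed without replicate 2, the highest of its group (-0.70 with 0.0254), and with sample quality weights (-0.43 with 0.0211).

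S1pr2, a receptor that opposes this movement, had 13.8, 14.2 and 12.9 FPKM in PBS, 9.70, 8.47 and 8.78 with RANKL, and 8.47, 8.26 and 8.55 with the vitamins. It fell by 0.72 with RANKL (SE 0.117, edgeR adjusted p = 0.0145) and by 0.66 from PBS to RANKL + Vit D + K (SE 0.117, adjusted p = 0.00254), and every PBS library lay above all others. The RANKL call was lost without PBS replicates 1 (0.0744), 2 (0.0545) or 3 (0.0639) or RANKL replicates 2 (0.0533) or 3 (0.0506). The vitamins against RANKL gave 0.06 (SE 0.116, adjusted p = 0.737, 95% interval -0.20 to 0.32), with overlapping groups. S1pr1 (ENSMUSG00000045092) lies on chromosome 3, 115710433 to 115715072, and S1pr2 (ENSMUSG00000043895) on chromosome 9, 20962361 to 20976781, both on the minus strand.

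Among the other S1P genes (12 listed, 9 tested), 1 rose and 0 fell with RANKL and 1 rose and 2 fell with the vitamins (medians 0.17 and -0.28). The 1 of 9 with RANKL (11.1%) stands beside 3.61% of all genes, and the 3 of 9 with the vitamins (33.3%) beside 33.7%. Spns2, the transporter that exports S1P, passed in the same directions as Pdgfb and had 5, 2 and 8 counts in PBS, 680, 1129 and 588 with RANKL, and 0, 95 and 10 with the vitamins. It rose with RANKL by 7.12 (SE 1.33, edgeR adjusted p = 0.0236), from 0.0141 to 2.59 FPKM, and with the vitamins it fell by 4.47 (SE 1.12, adjusted p = 0.0154), to 0.109, and gave -7.05 without RANKL + Vit D + K replicate 2. The first call was lost in 6 of 9 fits without a library (up to 0.117) and the second without RANKL + Vit D + K replicate 3 (0.0596). Plpp3, a phosphatase that degrades S1P outside the cell, went the other way, with 364, 357 and 331 counts with RANKL and 5143, 2023 and 4054 with the vitamins (a rise of 3.61, SE 0.434, adjusted p = 0.000901). Sgpp1, a phosphatase that degrades S1P inside the cell, fell by 1.75 (SE 0.257, adjusted p = 0.00188), from 28.0 to 7.72 FPKM.

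**Figure D4:**
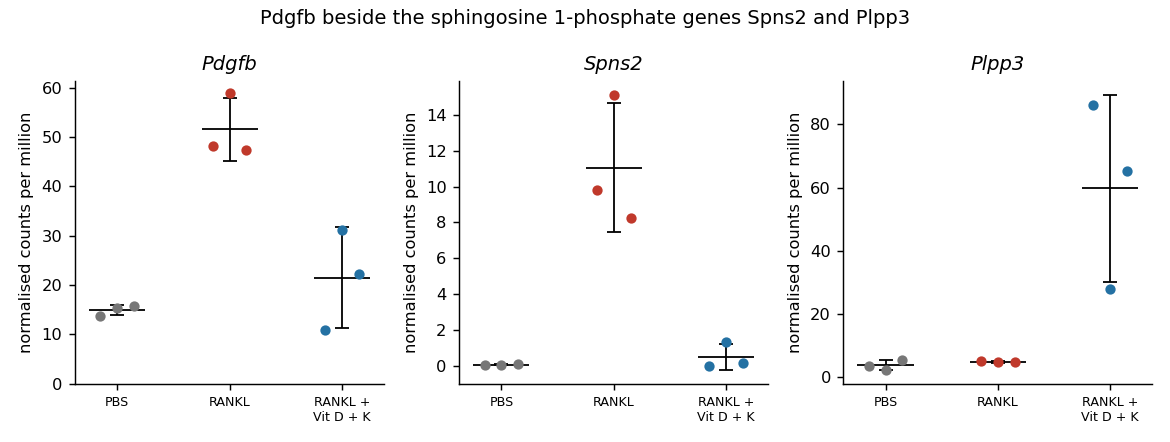
Normalised CPM (vertical axis, linear, a separate scale for each gene) of Pdgfb, the S1P exporter Spns2 and the S1P phosphatase Plpp3 in each of the 9 libraries, with the mean (line) and SD (bars) of each group of 3. Pdgfb and Spns2 are highest in the 3 RANKL libraries, and Plpp3 is highest in the 3 RANKL + Vit D + K libraries.

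Of 12 further osteoclast coupling signals outside these families (9 tested), 2 rose and 0 fell with RANKL (median 0.94), 22.2% beside 3.61% of all genes, and 2 rose and 4 fell with the vitamins (median -0.62), 6 of 9 (66.7%) beside 33.7% of all genes. Efna2, an ephrin ligand, rose with RANKL by 2.51 (SE 0.298, edgeR adjusted p = 0.00442) and fell with the vitamins by 2.71 (SE 0.301, adjusted p = 0.000713), and both calls held without any 1 library. C3, complement component 3, rose by 2.09 (SE 0.411, adjusted p = 0.0283, lost in 4 of 9 fits) and fell by 1.58 (SE 0.405, adjusted p = 0.0167, lost in 3 of 9). Vegfa, the vascular growth factor, and Spp1, osteopontin, rose with the vitamins by 2.75 (SE 0.640, adjusted p = 0.0114) and 2.33 (SE 0.506, adjusted p = 0.00862). Efna2 and C3, like Pdgfb, were thus higher with RANKL and lower again with the vitamins. Over the 8 lists, the named calls that held in every fit without a library were 1 of 9 with RANKL and 19 of 28 with the vitamins. These leave aside Rhbdf2 with the vitamins, which was named after its values were seen.

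**Figure D5:**
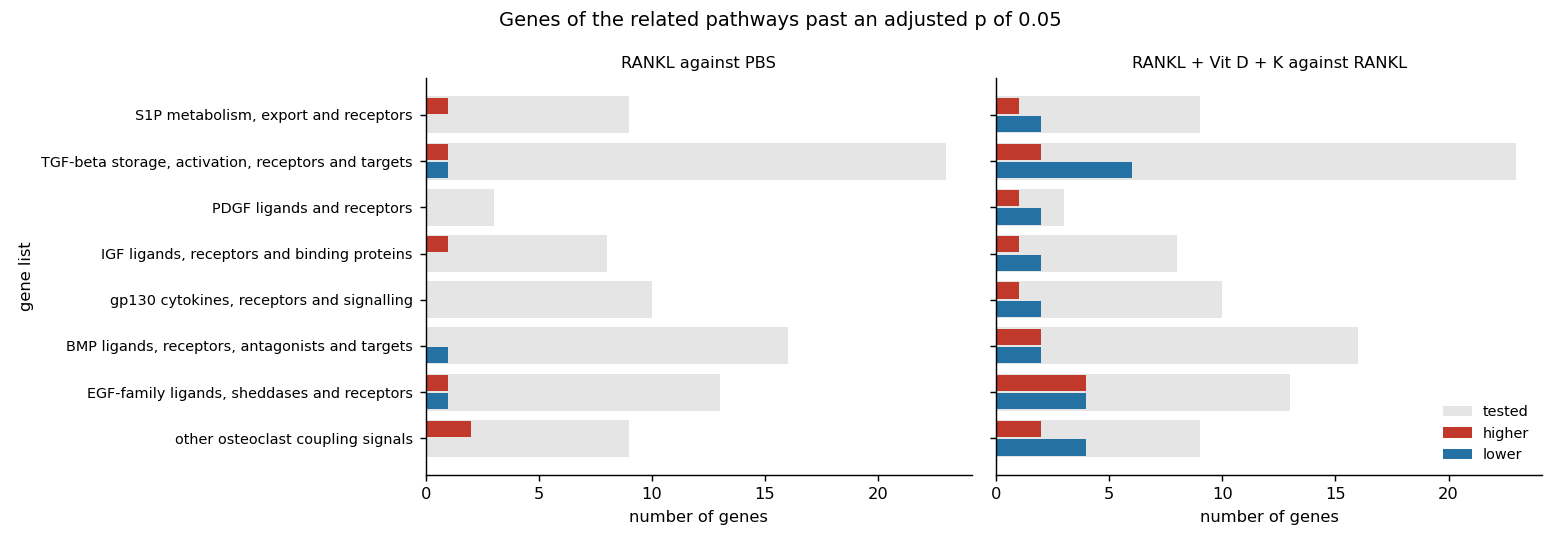
Number of genes (horizontal axis) in each of 8 lists of related genes that were tested (grey), higher (red) and lower (blue) at an adjusted p under 0.05, for RANKL against PBS and RANKL + Vit D + K against RANKL. At most 2 genes of any list are higher or lower with RANKL, and up to 6 are lower with the vitamins, in the TGF-beta list.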

How the data were processed

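RNA was measured in 9 mouse BMDM libraries from poly(A)-selected RNA and paired-end reads. The authors deposited 1 table with whole-number counts per gene, not normalised, and FPKM values, which the authors scaled by gene length and by library. The submitters' processing notes name cutadapt 1.9, HISAT2 2.0.4, StringTie 1.3.4d, edgeR and the build hg38, although the table's genes are mouse. Of 28379 gene IDs, 28294 are in GENCODE M21 (GRCm38), and 24678 have the same coordinates there. Whether counting used strand, and how reads of similar genes were shared, is not given in the sources used here, so genes with close copies or overlaps are uncertain.

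Groups came from the labels. Counts were tested in R 4.3.3 with edgeR 4.0.16 (filterByExpr with a minimum count of 10, TMM, quasi-likelihood test, all 9 libraries fitted together, Benjamini-Hochberg adjustment over 17002 genes, threshold 0.05). The SE is the log2 fold change divided by the square root of F, and 95% intervals use the t quantile at the test's degrees of freedom. Against groups at 0 counts, folds are bounds from a floor of 3 counts per library, at most 4.55e-06% of a library, and cover counting error only. Alternatives were DESeq2 1.42.0 and its size factors, no filter, limma 3.58.1 on log2(FPKM + 1) and log2(FPKM + 0.1), sample quality weights, only the 2 groups, counts divided by 4, a replicate block and each library left out. No 2 libraries of a group were duplicates (chi-square per degree of freedom 27.0 to 533). Motifs were searched on both strands of RefSeq promoters. Planned protein comparisons were not made.

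The labels number replicates 1 to 3 in each group. Deviations of same-numbered RANKL and PBS libraries from their group means correlated at 0.122, 0.219 and 0.155, so these numbers may pair those libraries, from the data and not the labels. The main tests used no pairing, and the replicate block was an alternative. Deviations of RANKL + Vit D + K and RANKL correlated at 0.00625, 0.0428 and 0.107, and those of RANKL + Vit D + K and PBS at -0.0216, 0.0217 and 0.0237. Replicate 1 of the vitamins was not most like replicate 1 of either group, so pairing of the vitamin libraries was not shown.

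The 10 genes and the lists were chosen with earlier results of these data known. All 10 genes are named, with up to 4 genes of each list past the threshold with the largest change in each of the first 2 comparisons, and the 3 genes most like each of Osm, Igf1 and Pdgfb, the members past the threshold with the vitamins against RANKL. Rhbdf2 in that comparison, Sphk2, Id1 and Id3 were named after their values were seen. Of these most alike genes, 1 is not reported here.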

Additional observations from a re-analysis of the deposited data

How the results depend on the processing

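Of 537 values of the 10 genes under alternative settings, 473 kept their direction and side of the threshold, 29 passed it newly, 31 lost it and 4 reversed. Reversed were Tgfb1 in RANKL against PBS without RANKL replicate 1 (-0.0456; -0.0456 to 0.166 over all fits without 1 library) and S1pr2 in RANKL + Vit D + K against RANKL with limma on log2(FPKM + 1) (-0.0812), on log2(FPKM + 0.1) (-0.0893) and without RANKL replicate 2 (-0.0176; -0.0176 to 0.137 over all fits without 1 library), none of them past the threshold. Outside the 10 genes, Id1 in that comparison reversed without RANKL replicates 1 (-0.0158) or 3 (-0.217) and without RANKL + Vit D + K replicate 2 (-0.844), within -0.844 to 1.70 over the fits without 1 library. The number of genes of the 10 past the threshold is given with the share of all genes tested in the same fit. In RANKL against PBS it was 5 (3.61%), 8 with sample quality weights (17.7%) and 1 to 7 without 1 library (0.709% to 10.7%). In RANKL + Vit D + K against RANKL it was 3 (33.7%), and 5 with limma on log2(FPKM + 1) (35.4%) or log2(FPKM + 0.1) (36.1%), with Tgfb1 and Lif added. It was 6 there with sample quality weights (62.9%) and 3 to 4 without 1 library (18.1% to 46.4%). Against PBS it was 6 (40.8%), 9 with sample quality weights (64.1%) and 5 to 7 without 1 library (26.8% to 49.8%). The cause was not tested. Lif and Hbegf have PBS libraries at 0, so their folds over PBS are bounds only. With counts divided by 4 Sphk1 was not tested, Bmp2 kept its call in RANKL + Vit D + K against PBS (adjusted p = 0.00431), Lif passed in RANKL + Vit D + K against RANKL (0.0320) and Hbegf lost its call in RANKL against PBS (0.0620).

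Over all genes, RANKL against PBS gave 614 past the threshold, 1699 with DESeq2, 1736 with only the 2 groups, 3006 with quality weights and 126 to 1903 without 1 library. RANKL + Vit D + K against RANKL gave 5725, 10698 with quality weights and 3199 to 8259 without 1 library. Against PBS the RANKL + Vit D + K group gave 6932, and 10899 with quality weights. The share of higher among these in RANKL + Vit D + K against RANKL was 48.8%, and 36.8% or 35.6% with limma on FPKM + 1 or + 0.1, the latter with a median of all genes of -0.16.

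With the replicate number as a block, 5, 3 and 6 of the 10 genes passed, the same genes as without it, and it changed no call of the 10 genes, while Id3 passed in RANKL + Vit D + K against RANKL (-2.54, adjusted p = 0.00920). Of 665 values of the named genes of the lists under the alternatives, leaving aside those named after their values were seen, 564 kept their side and 101 lost it.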
